A study of Homo sapiens with 12 samples.

Results

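The genes described here are the cadherins and the non-clustered protocadherins, 27 genes of 18105 autosomal genes that had an H3K27me3 peak close to a transcription start site (TSS). They were chosen by symbol, as a gene named CDH or PCDH followed by a number, with a deposited peak in at least 1 library whose centre lay within 10 kb of that gene's TSS. This gave 19 cadherins and 8 protocadherins on 8 chromosomes. The value of a gene is the sum of fragments over the consensus intervals that hold those peaks, 82 intervals in all, of which 1 also served another gene (CDH16 shared it with RRAD). The cells were T24, an established line from a human bladder cancer, and the assay was ChIP-seq of H3K27me3, trimethylation of lysine 27 on histone H3.

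The 4 libraries came from cells given DMSO as vehicle, GSK-126 at 5 µM, fenretinide at 5 µM, or GSK-126 and fenretinide together at 5 µM each. Per the labels the treated cells were exposed for 72 h, and no time is stated for the vehicle. GSK-126 inhibits the methyltransferase EZH2 and fenretinide is a synthetic retinoid. Each condition had 1 library of 1 cell line, so a difference below compares libraries, has no replicate check and has no p-value.

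EZH2 is the enzyme of Polycomb repressive complex 2 that places H3K27me3, a mark found over silent genes. Cadherins are membrane proteins that hold cells together in a calcium-dependent way. Classical cadherins, of type I and type II, bind catenins with their cytoplasmic tail and so reach the actin cytoskeleton, while protocadherins lack that catenin-binding tail. In bladder epithelium E-cadherin, the product of CDH1, holds neighbouring cells at adherens junctions, and many type II cadherins and non-clustered protocadherins are known from the nervous system.

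Promoter sequence, taken from RefSeq (GRCh38.p14), was matched for 16 of the 27 genes. The 250 bases before the start are printed for 3 genes whose promoter lay inside the interval counted, 1 for each outcome with GSK-126: CDH7 rose, CDH23 fell and PCDH8 was called neither way. Capitals mark the dinucleotide CG, which reads the same on both strands, and each sequence runs 5′ to 3′ on the gene's strand. CDH7 lies at chr18:65750002-65750251 on the plus strand, CDH23 at chr10:71396670-71396919 on the plus strand and PCDH8 at chr13:52848641-52848890 on the minus strand.
CDH7: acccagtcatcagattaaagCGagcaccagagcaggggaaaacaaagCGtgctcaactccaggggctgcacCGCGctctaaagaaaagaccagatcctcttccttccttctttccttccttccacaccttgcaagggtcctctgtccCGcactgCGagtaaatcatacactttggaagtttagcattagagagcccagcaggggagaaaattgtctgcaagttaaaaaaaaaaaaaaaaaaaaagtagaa
CDH23: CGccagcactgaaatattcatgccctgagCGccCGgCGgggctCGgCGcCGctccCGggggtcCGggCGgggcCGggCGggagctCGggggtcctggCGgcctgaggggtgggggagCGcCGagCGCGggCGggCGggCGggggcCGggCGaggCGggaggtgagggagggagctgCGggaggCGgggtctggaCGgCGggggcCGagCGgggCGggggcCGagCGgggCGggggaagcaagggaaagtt
PCDH8: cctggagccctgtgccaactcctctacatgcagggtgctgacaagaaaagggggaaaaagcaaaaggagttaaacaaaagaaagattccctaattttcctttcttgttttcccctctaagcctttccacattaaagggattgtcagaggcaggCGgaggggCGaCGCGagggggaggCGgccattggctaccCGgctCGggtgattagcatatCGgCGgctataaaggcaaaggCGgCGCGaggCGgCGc
The CDH7 promoter held 6 CG, that of PCDH8 14 and that of CDH23 34. Of 33725 autosomal promoters of the same length, 93.9% held at least 1 CG, the median held 11, 52.3% held at least 10 and 32.7% at least 20. The 16 matched cadherin and protocadherin promoters had a median of 8.50, with 8 at 10 or more and 2 at 20 or more. Not all of them lie at the start that was counted. The matched promoter lay 246995 bp from that start for CDH4, 8182 bp for CDH18, 2013 bp for PCDH1 and 1640 bp for PCDH17.

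The interval that holds the CDH7 promoter, 15.7 kb long, had 73 vehicle, 337 GSK-126, 100 fenretinide and 263 combination fragments. Over CDH23 the interval of 59.5 kb had 1608, 557, 1339 and 656 fragments in the same order. That of PCDH8, 37.4 kb long, had 755, 666, 750 and 548. In fragment counts, the GSK-126 and combination libraries lay above the vehicle and fenretinide libraries for CDH7 and below both for CDH23 and PCDH8. By library share, PCDH8 did not keep this order. Its ratio to vehicle was 0.935 with GSK-126 (0.842 to 1.04, a counting interval that held 1) and 0.899 with fenretinide (0.812 to 0.996).

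Across the 27 genes, the vehicle level per length ran from 2.46 fragments per kb at CDH19 to 48.2 at CDH22, a 19.6-fold range, with a median of 11.8. With GSK-126 the range was 5.41-fold, from 4.34 at PCDH7 to 23.5 at CDH10, with a median of 10.4. Fenretinide kept a wide range, 14.3-fold from 2.77 at PCDH10 to 39.6 at CDH22. In the combination library it was 6.39-fold, from 3.08 at CDH15 to 19.7 at CDH10. The SD of log2 fragments per kb over the genes was 1.02 (vehicle), 0.90 (fenretinide), 0.69 (GSK-126) and 0.65 (combination). The lowest vehicle levels came from CDH19 and CDH18, which, like PCDH10, entered the set through peaks in the GSK-126 and combination libraries only. Without these 3 genes the vehicle range was 10.1-fold (lowest CDH12 at 4.75) and the SDs were 0.80 (vehicle), 0.64 (fenretinide), 0.73 (GSK-126) and 0.69 (combination), so fenretinide then had the smallest. These levels are not scaled to depth, and the library totals of 15812933 to 18928836 fragments differ by less than the levels described.

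**Figure D1:**
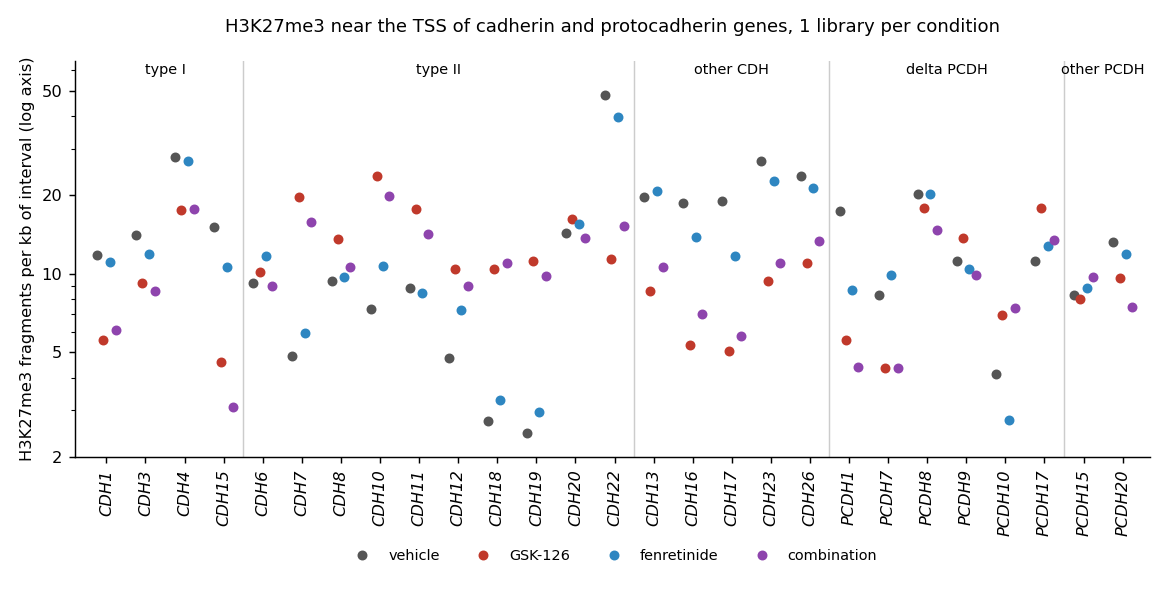
H3K27me3 fragments per kb of interval (log axis) near the TSS of each of the 27 genes in the 4 libraries, grouped by subfamily. The vehicle points run from 2.46 at CDH19 to 48.2 at CDH22, and the lowest vehicle points belong to CDH19, CDH18 and PCDH10, which were chosen through peaks in the GSK-126 and combination libraries.

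GSK-126 against vehicle asked what the EZH2 inhibitor did to the mark at these genes. Calls used the ratio of library shares, with 2 or more read as higher and 0.5 or less as lower, where the 95% counting interval (exact Clopper-Pearson, printed in brackets) excluded 1 and the 2 libraries held at least 50 fragments. Of 25 genes measured by that rule, 6 rose, all type II cadherins, 8 fell and 11 did neither. Over all autosomal genes 11.1% were called higher and 42.1% lower. The median log2 ratio of the 25 genes was -0.10, beside -0.80 for all genes. Without CDH18, CDH19 and PCDH10, 4 of 23 measured genes rose and 8 fell, with a median of -0.38. Background scaling, which sets the 25% of intervals with the fewest fragments per kb equal and moves all GSK-126 ratios by -0.77 on the log2 scale, gave 3 rises (CDH7, CDH18 and CDH19) and 12 falls, where 985 of 14078 genes rose and 69.4% fell. It ended the calls of CDH10 (just under 2), CDH11 (1.26) and CDH12 (1.37). Peaks of the vehicle library alone, an alternative chosen after seeing the data, gave 3 rises (CDH7, CDH10 and CDH11) and 10 falls among 21 measured genes, where 6.24% of all genes rose and 45.6% fell. In these bulk libraries, fewer cells with the mark and less mark per cell cannot be told apart, and since the labels give no spike-in, rises and falls are of library share.

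**Figure D2:**
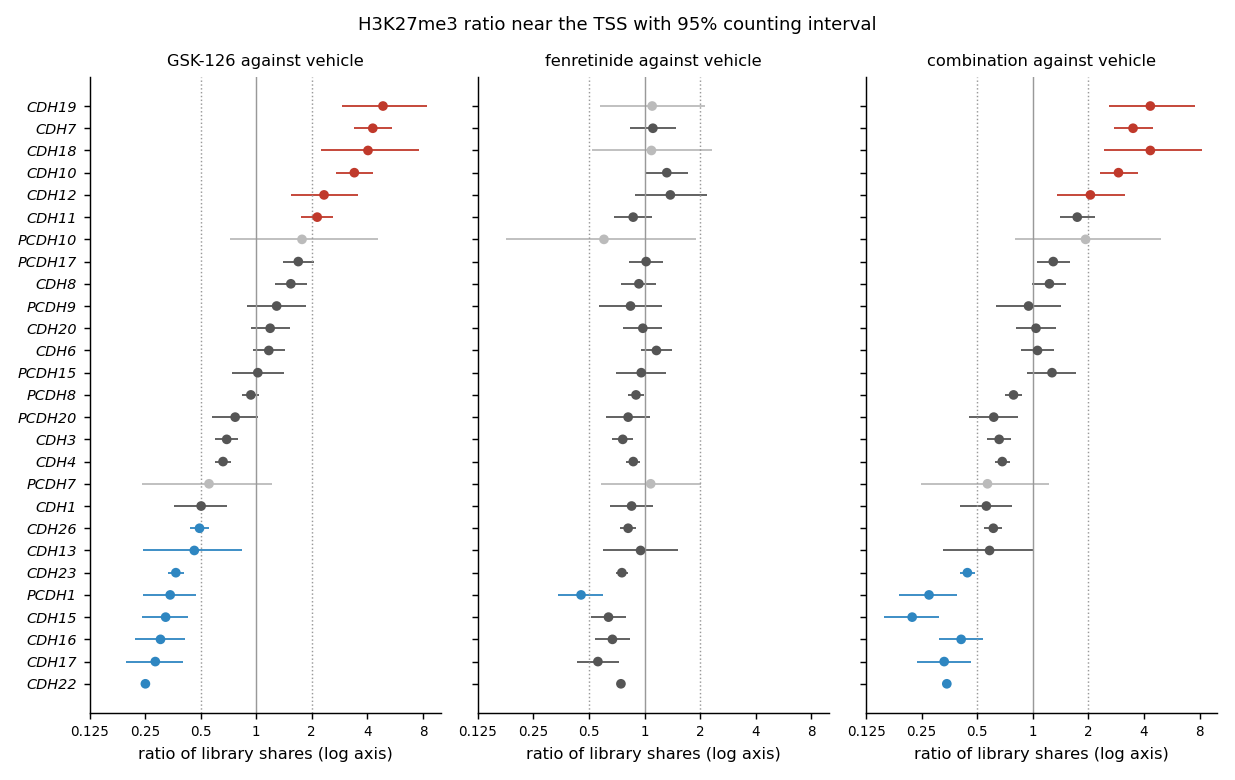
Ratio of library shares (log axis) with its 95% counting interval for each gene in the 3 comparisons with vehicle, ordered by the GSK-126 ratio. Red points were called higher, blue lower, dark grey neither, and pale grey points had under 50 fragments in the 2 libraries. With GSK-126 the type II genes CDH19, CDH7, CDH18, CDH10, CDH12 and CDH11 are at the top and CDH22 is at the bottom.

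The type I cadherins include the epithelial members. CDH1 had 118 vehicle, 56 GSK-126, 111 fenretinide and 61 combination fragments. Its GSK-126 ratio was 0.503 (0.359 to 0.697), just above the limit for a call. CDH1 was called lower from vehicle peaks alone (0.499, 0.355 to 0.693), with TMM factors and with background scaling (0.296, 0.211 to 0.410). The interval that holds the CDH1 start had 32 vehicle and 15 GSK-126 fragments. CDH3, which encodes P-cadherin of basal epithelial cells, had 501, 327, 422 and 304 fragments and a GSK-126 ratio of 0.692 (0.600 to 0.797). That sum joins intervals that differed: the one at the start fell from 142 to 51 fragments, a ratio of 0.381 (0.271 to 0.528), and the upstream one of 26.8 kb went from 359 to 273 (0.806, 0.686 to 0.947). CDH4, R-cadherin, went from 1090 to 679 (0.661, 0.599 to 0.728) and was also called neither way. CDH2, which encodes N-cadherin, was outside the rule: its nearest peak lay 110396 bp away, in an interval of 2, 3, 3 and 5 fragments, and no interval overlapped its span.

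CDH15, the M-cadherin of muscle cells, was the 1 type I gene called lower by the main rule. It had 210 vehicle, 64 GSK-126, 148 fenretinide and 43 combination fragments, a GSK-126 ratio of 0.323 (0.240 to 0.429). All 4 measured type I genes lay below 1, with a median log2 ratio of -0.79, close to that of all genes.

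Type II cadherins gave all 6 rises, and 9 of the 10 measured lay above 1 (median log2 1.15). These values include CDH18 and CDH19, which entered the set through peaks in the GSK-126 and combination libraries only. Without them 4 rises remained, and peaks of the vehicle library alone gave 3 (CDH7, CDH10 and CDH11). With background scaling 3 of the 10 were called higher, 6 lay above 1 and the median was 0.38. CDH7 had 90 vehicle, 363 GSK-126, 110 fenretinide and 290 combination fragments, a GSK-126 ratio of 4.28 (3.39 to 5.45). Near CDH10 the counts were 103, 330, 150 and 277, a ratio of 3.40 (2.72 to 4.28), and they came from a single interval of 14.1 kb upstream of the start. The counts near CDH11, OB-cadherin of mesenchymal and bone-forming cells, were 145, 292, 139 and 233, a ratio of 2.14 (1.74 to 2.62). For each of these 3 genes, the GSK-126 and combination counts were above the vehicle and fenretinide counts. Each count is from 1 library, so this is no replicate check, and the share of all genes with this order is not given.

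The other 3 rises rested on fewer fragments. CDH19, known from the Schwann cell lineage, had 19, 87, 23 and 76 fragments in the order vehicle, GSK-126, fenretinide and combination, a GSK-126 ratio of 4.86 (2.93 to 8.45). Near CDH18 they were 15, 57, 18 and 60, a ratio of 4.03 (2.25 to 7.66). CDH12 had 36, 79, 55 and 68, a ratio of 2.33 (1.55 to 3.55). CDH18 and CDH19, like PCDH10, had a peak near the start only in the GSK-126 and combination libraries, so the rule took them in through the libraries in which they were high. From vehicle peaks alone CDH12 had too few fragments for a call, with 18 and 22 in its interval.

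CDH22, a cadherin of pituitary and brain, went against the other type II genes. It had the most fragments of the 27: 10153 vehicle, 2403 GSK-126, 8354 fenretinide and 3202 combination fragments. Its GSK-126 ratio of 0.251 (0.240 to 0.262) was the lowest of the measured genes. The fall was seen in both of its intervals, from 3777 to 806 fragments over 82.1 kb and from 6376 to 1597 over 129 kb. The remaining type II genes were called neither way: CDH6 went from 198 to 219 fragments (1.17), CDH8 from 167 to 242 (1.54) and CDH20 from 135 to 152 (1.19).

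The 5 cadherins outside the classical types all fell, where 42.1% of all genes fell, and their median log2 ratio was -1.44. CDH17, the cadherin of liver and intestine, had 157 vehicle, 42 GSK-126, 97 fenretinide and 48 combination fragments (GSK-126 ratio 0.284, 0.197 to 0.401). CDH16, kidney-specific cadherin, had 196, 56, 145 and 74 (0.303, 0.221 to 0.410). The fall of CDH23, whose product forms the tip link of inner ear hair cells, gave a ratio of 0.367 (0.333 to 0.405) from the counts above. CDH26 had 872, 405, 785 and 492 fragments and a ratio of 0.493 (0.437 to 0.555), near the limit. In all 4 of these genes the GSK-126 and combination counts were below the vehicle and fenretinide counts, again from 1 library each.

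CDH13 encodes T-cadherin, which is anchored in the membrane by a lipid and has no cytoplasmic tail. Its 2 intervals near the start, both upstream, had 39 vehicle, 17 GSK-126, 41 fenretinide and 21 combination fragments, a GSK-126 ratio of 0.462 (0.245 to 0.837). Over the gene itself, which spans 1174 kb, the direction was opposite: its intervals had 358 vehicle, 1200 GSK-126, 486 fenretinide and 1380 combination fragments, a GSK-126 ratio of 3.55 (3.16 to 4.01). The vehicle level there was low, at 2.41 fragments per kb beside 8.06 with GSK-126. Some of these intervals may exist only through peaks called in the libraries with GSK-126, which was not counted. The call of CDH13 as lower is thus one on the region upstream of its start.

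Among the protocadherins 1 of 6 measured genes fell and none rose, where 42.1% of all genes fell and 11.1% rose. PCDH1, known from airway epithelium, had 158 vehicle, 51 GSK-126, 79 fenretinide and 40 combination fragments, a GSK-126 ratio of 0.342 (0.245 to 0.472). PCDH17 had 171, 272, 193 and 204 (1.69, 1.39 to 2.05) and joined unlike intervals. The one at its start went from 80 to 225 fragments, a ratio of 2.98 (2.30 to 3.90), while the larger upstream one went from 76 to 43 (0.600, 0.403 to 0.883). With library totals, the sum therefore hides a rise over the start that passes the rule on its own. Its log2 ratio of 1.57 would not pass after the shift of -0.77 that background scaling gives.

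PCDH9 went from 56 to 68 fragments (1.29, 0.891 to 1.87) and PCDH20 from 120 to 87 (0.769, 0.577 to 1.02). PCDH15, the partner of CDH23 in the tip link, went from 82 to 79 (1.02). PCDH7 (21 and 11 fragments) and PCDH10 (9 and 15) were not measured. The 4 measured delta protocadherins, a group with conserved cytoplasmic motifs that holds PCDH1, PCDH8, PCDH9 and PCDH17, had a median log2 ratio of 0.13, which was -0.63 with background scaling. Under that scaling CDH1, CDH3, CDH4 and PCDH20 were also called lower.

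The clustered protocadherins, a tandem array on chromosome 5 that the rule leaves out, were read for comparison. Of 51 measured, 34 rose, none fell and 17 did neither with GSK-126 (median log2 1.5), while no non-clustered protocadherin rose. Over all genes 11.1% rose and 42.1% fell. Clustered genes share intervals, so these are not 51 separate measurements, and the difference between the families was not tested.

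Position along the chromosome was compared next, since many of these genes are neighbours. On the long arm of chromosome 18, CDH20 (61333430 to 61555779) was near 1 (ratio 1.19), and CDH7 (65750252 to 65890337) and CDH19 (66501083 to 66604090) rose. On the short arm of chromosome 5, CDH18 (19471296 to 20575713), CDH12 (21750673 to 22853344) and CDH10 (24487100 to 24644978) rose and CDH6 (31193686 to 31329146) was near 1. CDH9 (26880597 to 27038586), between CDH10 and CDH6, was outside the rule with its nearest peak at 35320 bp, and its span went from 46 to 106 fragments (2.44, 1.71 to 3.53).

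Along the long arm of chromosome 16 the ratio changed side. CDH8 (61647250 to 62036438) was at 1.54 and CDH11 (64943753 to 65123744) at 2.14. CDH16 (66908122 to 66918885) followed at 0.303, CDH3 (68645310 to 68733771) at 0.692, CDH1 (68737292 to 68835537) at 0.503 and CDH15 (89171748 to 89195492) at 0.323. Between CDH11 and CDH16 lies CDH5 (66366691 to 66404784), the endothelial VE-cadherin gene, which was just outside the rule with its nearest peak at 10652 bp, in an interval of 245 vehicle and 64 GSK-126 fragments. Genes at lower coordinates up to CDH11 were above 1 and those beyond it below 1, apart from the intervals within CDH13. Spans are those of RefSeq on GRCh38.p14.

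The intervals within 500 kb of each start, without those already counted for any of the 27 genes, were counted for comparison. With library totals, the surroundings had a GSK-126 ratio of at least 2 for 13 of the 27 genes and of at most 0.5 for 3 (CDH15, CDH16 and CDH23). Background scaling, which moves all GSK-126 ratios by -0.77 on the log2 scale, would lower each of these ratios. In the vehicle library the surroundings ran from 2.09 fragments per kb at CDH18 to 41.0 at CDH22, and with GSK-126 from 6.82 to 23.3. The log2 ratios near the start and in the surroundings had a Spearman rho of 0.86 and a Pearson r of 0.84 over 27 genes, as a description: the points share libraries, and the windows of CDH1 with CDH3 and of CDH7 with CDH19 overlap. The 27 genes include CDH18, CDH19 and PCDH10, chosen through the GSK-126 and combination libraries, and the unmeasured PCDH7 and PCDH10. With library totals, the genes that rose thus lay among counted intervals whose sum rose. Intervals exist only where a peak was called in at least 1 library, so some may have entered through the GSK-126 or combination libraries. How many did was not counted. The surroundings include a gene's own body where it lies within 500 kb of the start. Those of CDH18 (1371 to 8885 fragments) share intervals with its body (1579 to 10012), so surroundings and bodies are not separate readings. For CDH7 the surroundings went from 1818 to 6491 fragments (3.79, 3.59 to 3.99), beside 4.28 near its start.

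In 18 of the 25 measured genes the ratio near the start was below that of the surroundings, by at least 1 on the log2 scale in 8, and in none was it above by as much. With library totals, the values of 4 of them lay on opposite sides of 1, with the start below and the surroundings above: CDH1, CDH3, PCDH1 and PCDH20. Background scaling would move all these ratios by -0.77 on the log2 scale. The surroundings of CDH1 (log2 0.54), CDH3 (0.56) and PCDH1 (0.30) would then lie below 1 too, while those of PCDH20 (1.04) would stay above. The counting interval of PCDH20 near its start held 1 (0.577 to 1.02). Around PCDH1 the surroundings went from 3040 to 3521 fragments (1.23, 1.17 to 1.29) while the gene fell to 0.342. Around CDH1 they went from 2190 to 3010 (1.46, 1.38 to 1.54), beside 0.503 near its start. Around PCDH20 they went from 3269 to 6337 (2.06, 1.97 to 2.15), beside 0.769.

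**Figure D3:**
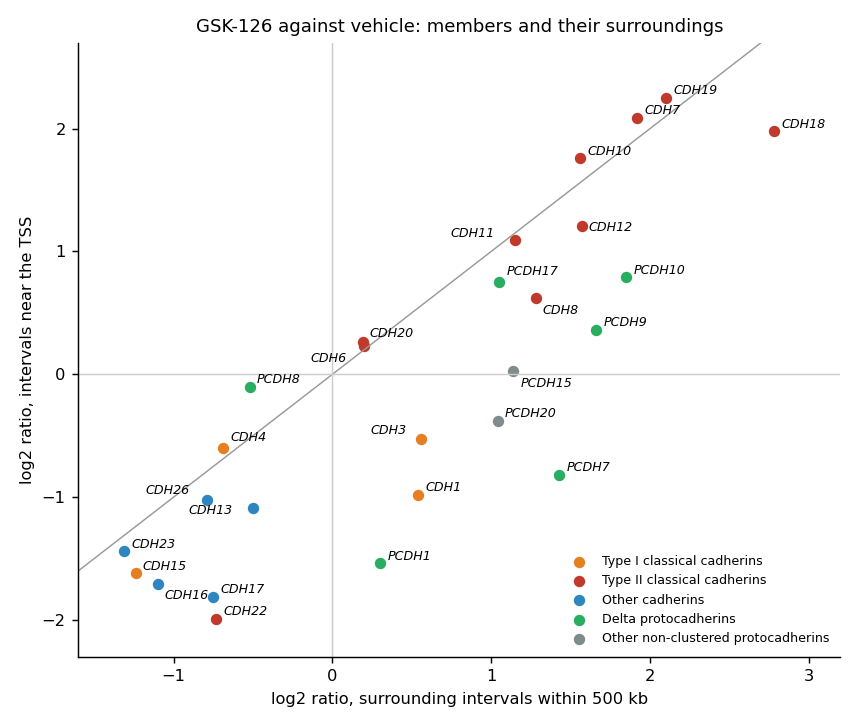
Log2 GSK-126 ratio near the start of each gene (vertical axis) against that of the other intervals within 500 kb (horizontal axis), coloured by subfamily (PCDH7 and PCDH10 had under 50 fragments). Ratios use library totals, and the diagonal line marks equal values. The points follow the diagonal (rho 0.86), and PCDH1, CDH1, CDH3, PCDH20 and the unmeasured PCDH7 sit in the region below 0 on the vertical axis and above 0 on the horizontal axis.

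**Figure D4:**
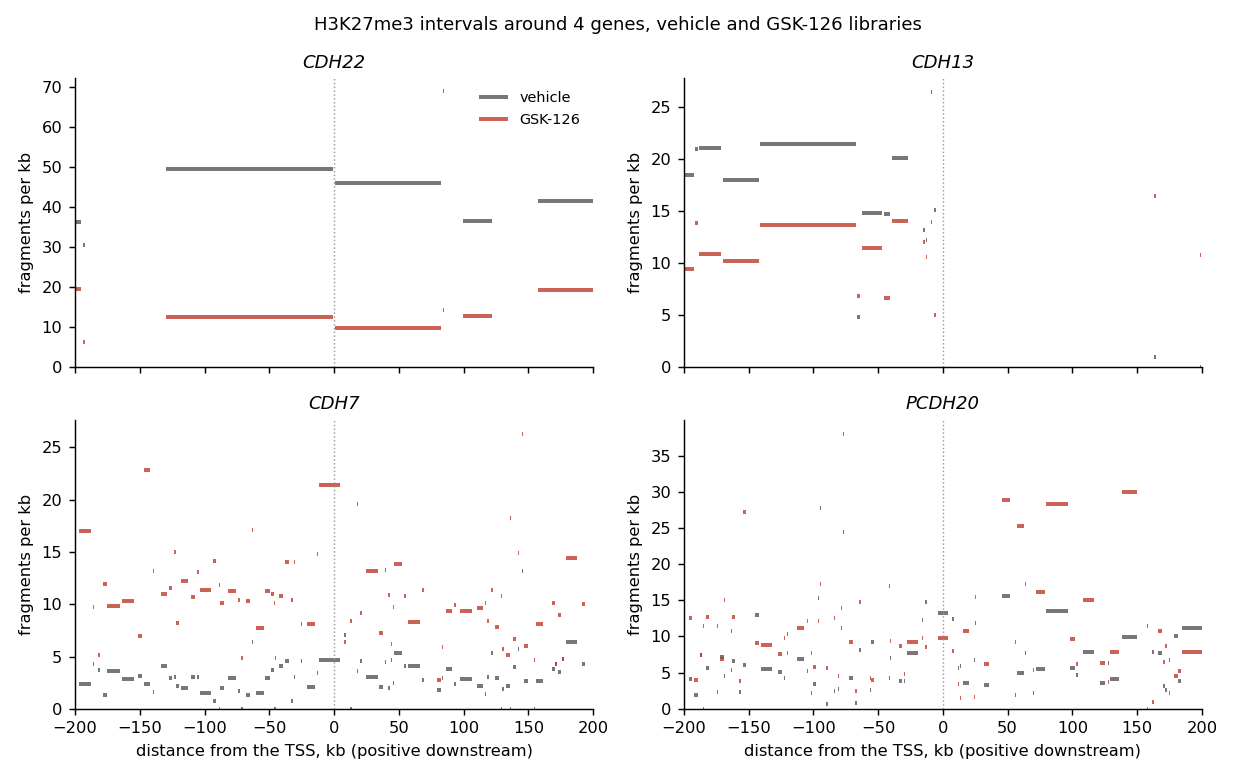
Fragments per kb of each interval within 200 kb of the start of CDH22, CDH13, CDH7 and PCDH20, by distance from the start in kb (positive downstream), with vehicle in grey and GSK-126 in red. Grey lies above red around CDH22 and red above grey around CDH7, while at PCDH20 the interval at the start has grey above red and several downstream intervals have red above grey.

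Gene bodies were counted with library totals, apart from the intervals near the start, an alternative chosen after seeing the data. Body intervals within 500 kb of the start are also part of the surroundings above. Like those, body intervals exist only where a peak was called in at least 1 library. Of 23 genes with enough body fragments, 8 were higher with GSK-126, 6 lower and 9 neither, where 18.0% of 6095 genes measured the same way were higher and 32.7% lower. CDH18 went from 1579 to 10012 (6.72, 6.38 to 7.10) and CDH12 from 2810 to 7976 (3.01, 2.88 to 3.14). PCDH15 went from 8666 to 17031 (2.08, 2.03 to 2.14) and PCDH9 from 1656 to 3602 (2.31, 2.18 to 2.45), so the bodies of these protocadherins passed the rule where their starts did not. CDH8 did so too, from 1201 to 3336 (2.95, 2.76 to 3.15). For PCDH15 and CDH18 the start used lay 827 kb and 698 kb inside the span, so their intervals near the start also lie within the gene. Background scaling would move all these ratios by -0.77 on the log2 scale. The bodies of PCDH15 (log2 1.06), PCDH9 (1.21), CDH8 (1.56) and CDH12 (1.59) would then not pass the rule, while that of CDH18 (2.75) would. The rise of CDH10 was smaller in its body, from 231 to 262 fragments (1.20, 1.00 to 1.44). The body of PCDH1 fell like its start, from 448 to 97 (0.230, 0.182 to 0.287), and that of CDH23 went from 5693 to 1649 (0.307, 0.291 to 0.325).

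The 27 genes also differ in how crowded their surroundings are. For 12 of them no other protein-coding gene of RefSeq lies within 500 kb of the start, and all 6 rises came from this group, in which 11 genes were measured and none fell. The starts used for CDH18 and PCDH15 lay 698 kb and 827 kb inside their own spans. Their windows thus lie mostly or wholly within the gene itself, which leaves little room for neighbours. Without CDH18, CDH19 and PCDH10, chosen through the libraries in which they were high, 4 of 9 rose and the median log2 ratio was 0.62. Of all 239 measured genes with a RefSeq symbol and no such neighbour, counted from the nearest peak and with these genes among them, 39.3% rose and 10.5% fell, with a median log2 ratio of 0.64, beside 1.09 for all 11 measured cadherins and protocadherins. At the other end, the 4 genes with at least 15 neighbours (CDH15, CDH16, CDH22 and PCDH1) all fell, with a median of -1.67. Of 4088 measured genes with at least 15 neighbours, 52.3% fell, with a median of -1.05. Over the 27 genes, the number of neighbours and the log2 ratio had a Spearman rho of -0.79 and a Pearson r of -0.65, given as a description of points that share libraries. Type II membership and an isolated position thus go together here, and what each adds was not tested.

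**Figure D5:**
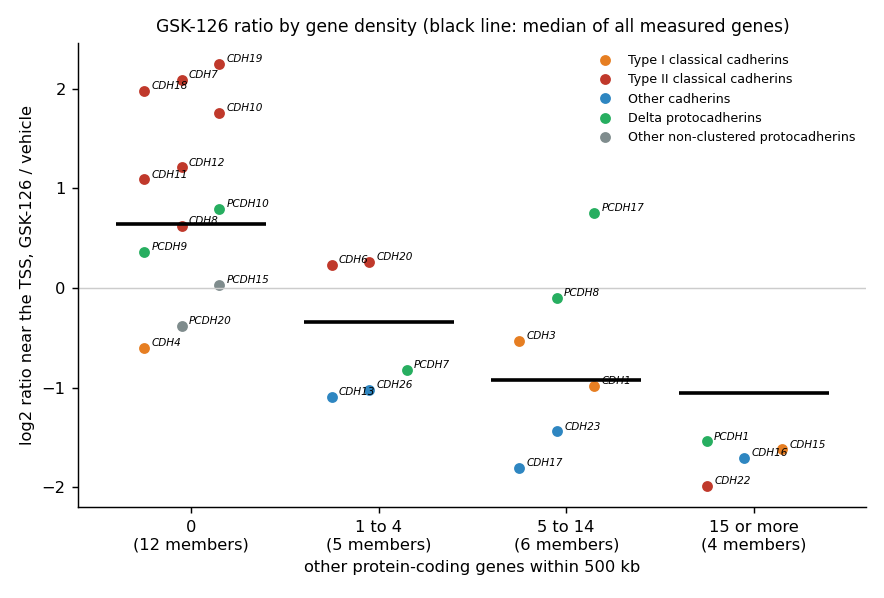
Log2 GSK-126 ratio near the start of each gene by the number of other protein-coding genes within 500 kb, coloured by subfamily (PCDH7 and PCDH10 had under 50 fragments). Black lines give the median of all measured genes in that class, from 0.64 with no neighbour to -1.05 with at least 15, and the cadherins and protocadherins follow the same order.

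Fenretinide against vehicle asked whether the retinoid alone moved the mark. Of 23 measured genes none rose and 1 fell, where 0.289% of all genes rose and 1.54% fell. The median log2 ratio was -0.20, beside -0.16 for all genes. The gene that fell was PCDH1, with 158 vehicle and 79 fenretinide fragments, a ratio of 0.453 (0.341 to 0.597). Its interval nearest the upstream end went from 68 to 22 fragments and a second from 74 to 45. Over its whole span PCDH1 was at 0.738 (0.654 to 0.832), which is no call. CDH3 was called neither way at 0.762 (0.668 to 0.870). The interval at the CDH3 start went from 142 to 77 fragments (0.491, 0.367 to 0.652), which passes the rule on its own.

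Several genes that fell with GSK-126 were also below 1 with fenretinide without passing the rule. CDH17 was at 0.559 (0.430 to 0.725), CDH15 at 0.638 (0.513 to 0.791) and CDH16 at 0.670 (0.536 to 0.834). CDH22 was at 0.745 (0.723 to 0.767) and CDH23 at 0.754 (0.700 to 0.811). Both comparisons use the same vehicle library, so their values are given side by side only. The genes that rose with GSK-126 stayed between 0.868 at CDH11 and 1.38 at CDH12. CDH10 was at 1.32 (1.02 to 1.71), and the counting intervals of CDH7, CDH11 and CDH12 held 1.

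The combination against vehicle gave 5 rises and 6 falls among 25 measured genes, where 9.48% of all genes rose and 33.5% fell. The median log2 ratio was -0.35, beside -0.67 for all genes. The rises were CDH18 and CDH19 (both 4.33, with lower bounds of 2.43 and 2.59), CDH7 (3.49, 2.75 to 4.47), CDH10 (2.91, 2.32 to 3.69) and CDH12 (2.05, 1.35 to 3.16). CDH11 was at 1.74 (1.41 to 2.16) and was not called. The falls were CDH15 (0.222, 0.156 to 0.309), PCDH1 (0.274, 0.189 to 0.390), CDH17 (0.331), CDH22 (0.342, 0.328 to 0.356), CDH16 (0.409) and CDH23 (0.442). CDH1 was at 0.560 (0.404 to 0.769) and CDH3 at 0.657 (0.568 to 0.760). CDH12 was no longer called with DESeq2 size factors (1.87) or TMM factors (1.83), whose shifts in this comparison were -0.13 and -0.16 on the log2 scale. With background scaling 2 genes were higher (CDH18 and CDH19) and 13 lower, where 4.99% of all genes rose and 70.1% fell.

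Against GSK-126 alone, the combination moved none of 24 measured genes past the rule in either direction, where 0.426% of all genes rose and 0.487% fell. The median log2 ratio was -0.17, beside 0.08 for all genes. The ratios ran from 0.686 (0.455 to 1.03) at CDH15 to 1.36 (1.29 to 1.44) at CDH22. Of 13152 autosomal genes measured, 8168 were above 1 and 4984 below. All 4 measured cadherins outside the classical types were above 1, with CDH23 at 1.20 (1.07 to 1.35) and CDH26 at 1.24 (1.09 to 1.42). All 4 measured delta protocadherins were below 1, with PCDH17 at 0.766 (0.636 to 0.922) and PCDH8 at 0.841 (0.749 to 0.943). CDH7 was at 0.816 (0.697 to 0.955) and CDH11 at 0.815 (0.683 to 0.972). The counting intervals of CDH15, CDH16, CDH17, PCDH1 and PCDH9, among others, held 1, and with DESeq2 size factors that of CDH23 (1.10, 0.982 to 1.24) and of CDH26 (1.14, 0.994 to 1.30) did too. How these differences compare with the spread between replicates cannot be given.

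Against fenretinide alone, 5 of 25 genes rose and 2 fell, where 9.19% of all genes rose and 19.2% fell. CDH18 (3.99, 2.32 to 7.18), CDH19 (3.96, 2.45 to 6.61), CDH7 (3.16, 2.53 to 3.97), CDH10 (2.21, 1.81 to 2.71) and CDH11 (2.01, 1.62 to 2.49) rose. CDH15 (0.348, 0.242 to 0.491) and CDH22 (0.459, 0.440 to 0.478) fell. CDH11 lost its call with TMM factors (1.95) and, at just under 2, with DESeq2 size factors. With background scaling 2 were higher (CDH18 and CDH19) and 11 lower, where 4.66% of all genes rose and 60.4% fell.

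Other genes of the adhesion machinery were read by the same rule in GSK-126 against vehicle, where 11.1% of all genes rose and 42.1% fell. Of 7 measured catenin genes 2 rose and 3 fell. CTNNA2 and CTNNA3, alpha-catenins of neurons and of heart and testis, went from 171 to 386 (2.39, 1.99 to 2.88) and from 294 to 570 (2.06, 1.78 to 2.37). JUP, which encodes plakoglobin, went from 76 to 13 (0.181, 0.0924 to 0.329) and CTNNBIP1, an inhibitor of beta-catenin, from 69 to 16 (0.246, 0.133 to 0.428). The third fall, named after its value was seen, was CTNNB1 itself, from 280 to 111 fragments (0.420, 0.334 to 0.526).

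Of 10 measured desmosome genes 6 fell and none rose, where 42.1% of all genes fell and 11.1% rose. DSP, desmoplakin, went from 106 to 22 (0.220, 0.132 to 0.351) and PERP from 41 to 11 (0.285, 0.132 to 0.564). Of 13 measured cadherin-related genes 1 rose and 5 fell, beside the same shares of all genes. CELSR3, a cadherin of the flamingo family with a role in axon guidance, went from 11 to 232 fragments, a ratio of 22.4 (12.3 to 45.4), larger than that of any of the 25 measured cadherins and protocadherins. CDHR2, a protocadherin-like gene of the intestinal brush border, went from 268 to 75 (0.297, 0.227 to 0.385) and the receptor gene RET from 796 to 228 (0.304, 0.261 to 0.352). The other falls, named after their values were seen, were FAT2, DCHS1 and CLSTN1. Among genes whose products repress CDH1, SNAI1 went from 74 to 19 (0.272, 0.155 to 0.456) and was the 1 of 3 measured that was called. PVRL2, the 1 nectin gene measured, went from 536 to 139 (0.275, 0.227 to 0.332).

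At the edge of the 10 kb limit, the farthest genes inside were CDH13, with its nearest peak at 6129 bp, and CDH10 at 4614 bp. The nearest outside was CDH5 at 10652 bp, followed by PCDH18 at 17872 bp in an interval of at most 5 fragments in any library. CDH2, CDH24, PCDH12 and PCDH18 had no interval over their span, and PCDH19 on chromosome X was outside the rule. Peaks near the 27 genes numbered 53 in the vehicle library (197 kb in all), 54 in the GSK-126 library (125 kb), 58 in the fenretinide library (144 kb) and 55 in the combination library (145 kb). The start used is the one in the deposited annotation, which for 6 genes lay more than 5 kb inside the RefSeq span: 8.69 kb for CDH17, 10.8 kb for PCDH1, 37.9 kb for CDH26, 92.4 kb for CDH22, 698 kb for CDH18 and 827 kb for PCDH15. The identity of the cells could not be checked against expression markers, since the RNA libraries were not analysed here.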

How the data were processed

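H3K27me3 ChIP-seq libraries of T24 cells, 1 for each of 4 conditions, were used, and the 4 input and 4 RNA libraries were not analysed here. The authors deposited raw fragment counts over 273664 consensus intervals, made with featureCounts 2.0.1 from read pairs without strand and with a minimum overlap fraction of 0.2, per the file headers. The authors also deposited broad peaks with a peak score of unstated scale and at least 10, called in each library, with HOMER distances to the TSS, per the file headers. MACS2 2.1.0 and GRCh38 (hg38) are named in the submitters' processing notes. The aligner and the control used for peak calling were not given in the sources used here. Intervals follow the peaks called in these libraries, so what was called decides what was counted.

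Library totals over intervals were 17133107 (vehicle), 16156194 (GSK-126), 18928836 (fenretinide) and 15812933 (combination) fragments. Ratios of library shares have exact Clopper-Pearson 95% intervals, which cover counting error only. Log2 ratios used a pseudocount of 0.5. All autosomal genes went through the same rule. The 5 comparisons had no test. Gene spans were RefSeq spans with 5 kb on either side.

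The genes and lists were chosen with earlier results of these data known. Named in full were CDH1, CDH2 and CDH3, the genes called in GSK-126 or the combination against vehicle with at least 100 fragments, and those called in the other comparisons; from other adhesion lists, up to 2 rises and 2 falls.

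Alternatives were size factors from DESeq2 (1.42.0), TMM factors from edgeR (4.0.16), background scaling (the lowest 25% of intervals by fragments per kb), 20 fragments in place of 50, a ratio of 1.5, peaks within 2 kb or 50 kb, peak scores of at least 20, intervals at least 50% covered by peaks, unshared intervals, gene spans and, chosen after seeing the data, vehicle or fenretinide peaks alone, gene bodies, the interval at the start and leaving out 3 genes (CDH18, CDH19 and PCDH10). DESeq2 and edgeR gave scaling factors only. The software was R 4.3.3 and Python 3.11.15 with scipy 1.17.1, pandas 2.3.3, numpy 2.4.6 and, for the plots, matplotlib 3.10.9.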

Additional observations from a re-analysis of the deposited data

Results flagged for a closer look

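For 3 of the 22 genes measured in both comparisons, the ratio of fenretinide over vehicle was below 1 and that of the combination over GSK-126 above 1, with counting intervals that excluded 1 both times. CDH22 was at 0.745 (0.723 to 0.767) for fenretinide over vehicle and at 1.36 (1.29 to 1.44) for the combination over GSK-126. CDH23 was at 0.754 (0.700 to 0.811) and 1.20 (1.07 to 1.35). CDH26 was at 0.815 (0.739 to 0.898) and 1.24 (1.09 to 1.42). Of 12467 genes measured in both comparisons, 15.5% had such opposite ratios. With DESeq2 size factors the combination ratio of CDH23 was 1.10 (0.982 to 1.24) and that of CDH26 1.14 (0.994 to 1.30), so CDH22 (1.25, 1.18 to 1.31) was the 1 gene left (9.46% of all genes), and with TMM factors CDH23 (1.11, 0.994 to 1.25) dropped out. The difference itself was not tested, since each condition had 1 library, and none of the 6 ratios passed the 2-fold rule.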

How the results depend on the processing

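No paired analysis was possible because each condition had 1 library, and for the same reason no replicate could be left out. With background scaling, the calls were 3 higher with GSK-126, 2 higher and 13 lower with the combination against vehicle, and 2 higher and 11 lower against fenretinide. With peaks within 2 kb they were 3 higher and 5 lower with GSK-126, 2 higher with the combination, and 3 higher and 1 lower against fenretinide. A ratio of 1.5 gave 3 lower with fenretinide, and 10 and 7 lower with the combination against vehicle and fenretinide. Peaks within 50 kb and gene spans gave 0 lower with fenretinide, and gene spans 4 lower for the combination against fenretinide. A peak score of at least 20 gave 3 higher with the combination, and intervals at least 50% covered gave 1 lower against fenretinide.

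Of the alternatives chosen after seeing the data, vehicle peaks alone gave 3 higher with GSK-126, 2 lower with fenretinide, 2 higher with the combination and 3 higher against fenretinide. Fenretinide peaks alone gave 2, 1 and 2 higher in the comparisons with GSK-126, the combination and the combination against fenretinide. The interval that holds the start gave 3 higher and 3 lower, 2 and 2, and 3 and 0 in those comparisons. Gene bodies gave 0 lower with fenretinide and 3 lower with the combination. Without CDH18, CDH19 and PCDH10, 4 genes were higher with GSK-126, and 3 with the combination against either vehicle or fenretinide. CDH13 reversed to 3.55 with GSK-126 over its span and body, and CDH10 to 0.994 and 0.933 in its body for the combination against vehicle and fenretinide. The causes were not tested. Of the ratios of single genes under the other alternatives, 280 moved by less than their counting interval, 50 by more and 1 reversed. DESeq2 and TMM factors moved GSK-126 ratios by at most 0.05 on the log2 scale and ended the call of CDH12 in the combination against vehicle (1.87 and 1.83) and of CDH11 against fenretinide (just under 2, and 1.95). TMM factors also brought a call of CDH1 as lower with GSK-126. Depth limits CDH12, CDH13, CDH18 and CDH19, and left PCDH7 and PCDH10 unmeasured.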
